A study of Mus musculus with 6 samples.

Results

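The translation initiation and elongation factors of the mouse were followed through a set of CT26 tumors. Members were the protein-coding genes of the deposited count table whose symbol begins with Eif or Eef followed by a digit, without the eIF2 kinases (symbols that begin with Eif2ak), which gave 65 of 23122 genes. The rule reads symbols only, and it was set with earlier results of these data known. The host mice were BALB/c females, 6 to 8 weeks of age. Each tumor grew under the skin from 500000 injected CT26 cells, a murine colorectal carcinoma line, and mice were randomized once tumors measured 100 to 200 mm3. The TP-18 group (3 tumors) received TP-18, which the series title names a dual antagonist of the prostaglandin E2 receptors EP2 and EP4, at 50 mg/kg by mouth once a day for 3 weeks. The vehicle group (3 tumors) received the carrier alone. Whether a sample stands for its own mouse is not stated in the labels, so p-values measure the spread between these samples.

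Initiation factors bring the small ribosomal subunit, the initiator tRNA and the messenger RNA together at a start codon, and elongation factors then deliver aminoacyl-tRNAs and move the ribosome along the message. eIF4F binds the cap, eIF3 holds the small subunit, and eIF2 with its exchange factor eIF2B supplies the initiator tRNA. The 4E-binding proteins keep eIF4E from the cap complex until mTORC1 phosphorylates them. Messages of elongation factors, like those of ribosomal proteins, are known to carry a pyrimidine-rich 5′ end through which mTORC1 regulates their translation.

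Libraries held 34813482 to 36489081 counts, with 18429 to 19617 genes detected. Bulk tumor RNA mixes carcinoma with host cells, and fewer cells of a type cannot be told apart from less RNA per cell. All 8 T cell markers were called higher in TP-18 tumors, with a summed level of 79.9 to 84.5 CPM in TP-18 tumors, against 14.6 to 30.7 CPM in vehicle tumors, where CPM is a gene's counts relative to the scaled total of its library. With a library left out, the 8 calls became 3 (TP-18 1 omitted), 2 (TP-18 2), 2 (TP-18 3), 4 (vehicle 2) and 6 (vehicle 3). They stayed at 8 without vehicle 1. Summed NK cell markers, all 5 called higher, ran from 34.9 to 38.9 CPM in TP-18 tumors, against 7.50 to 10.1 CPM in vehicle tumors. Red blood cell markers summed to 14.8 to 33.9 CPM in TP-18 tumors, against 66.2 to 395 CPM in vehicle tumors, with 4 of 5 called lower, but 0 called without TP-18 1, TP-18 2, TP-18 3 or vehicle 2 or with no filter on low counts, and 1 by limma-voom. Macrophage markers summed to 1795 to 2063 CPM in TP-18 tumors, against 915 to 1389 CPM in vehicle tumors, with 2 of 8 called higher, and 6 called without vehicle 1 or by DESeq2. Epithelial markers summed to 9.95 to 12.1 CPM in TP-18 tumors, against 10.4 to 19.4 CPM in vehicle tumors, and of 6 measured, the 2 that passed the filter on low counts were not called (Cdh1 at a log2 change of 1.15 ± 0.34 and Krt18 at -0.86 ± 0.26, with SE). Without that filter 3 were called, and by DESeq2 4. Among those that did not pass, Epcam had 7, 8 and 24 counts in TP-18 tumors, against 0, 0 and 2 counts in vehicle tumors, so it was at or near 0 in tissue labelled as a colorectal carcinoma line. Dendritic cell markers, 5 of 6 called higher (3 to 5 with a library left out), summed to 46.9 to 53.1 CPM in TP-18 tumors, against 14.5 to 23.9 CPM in vehicle tumors. Fibroblast markers, none called, summed to 2581 to 4066 CPM in TP-18 tumors, against 2266, 2390 and 6375 CPM in vehicle 1, 2 and 3. Neutrophil markers, none called, summed to 58.1 to 84.5 CPM in TP-18 tumors, against 32.1, 55.2 and 325 CPM in vehicle 1, 2 and 3. None of the markers of these lists was at 0 in all libraries. The part of these shifts in the changes of the translation factors was not tested.

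Promoter sequences were read for the members because they were no part of the choice by name. RefSeq promoters of GRCm38.p6 (250 bases before to 50 bases after an annotated start) were matched for 49 of the 65 members. Some members, such as Eif5a, have several annotated starts. A member counted once for a sequence searched here or below if any of its starts held it. The number of starts was not compared with that of other genes. The E-box CACGTG reads the same on both strands, and MYC and related factors are known to bind it. It was in the promoters of 14 of these 49 genes (28.6%), against 10.3% of 13771 protein-coding genes. Ribosomal protein genes held it in 6 of 60 cases (10.0%). The share was 3 of 9 among members called lower in TP-18 tumors, 1 of 3 among those called higher and 10 of 37 among the others. The E-boxes of the called members, and for comparison the one of Eif4e nearest its start, are shown with the hexamer in capitals, 5′ to 3′ on the strand of the gene.
Eef2: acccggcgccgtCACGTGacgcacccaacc
Eif3f: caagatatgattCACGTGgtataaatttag
Eif3k: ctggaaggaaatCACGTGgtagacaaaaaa
Eif5a2, first site: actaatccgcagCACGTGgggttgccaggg
Eif5a2, second site: cagggcgagcttCACGTGacggggcgggac
Eif4e: ggacacgtccgtCACGTGggcaggagccgg

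The Eef2 window lies at chr10:81176576-81176605 (plus strand), that of Eif3f at chr7:108934335-108934364 (plus strand) and that of Eif3k at chr7:28981915-28981944 (minus strand). The Eif5a2 windows lie at chr3:28781123-28781152 (plus strand) and chr3:28781148-28781177 (plus strand), and the Eif4e window at chr3:138527192-138527221 (plus strand). A match describes these letters and not a bound site.

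A pyrimidine run was searched in the 30 bases centred on each annotated start, as a C followed by at least 4 bases that are C or T on the strand of the gene. It was found in 17 of 49 members (34.7%), in 41 of 60 ribosomal protein genes (68.3%) and in 42.9% of all protein-coding genes. Members called lower held it in 3 of 9 cases and members without a call in 13 of 37. On the opposite strand the run was found in 8 of the 9 lower members, in 20 of all 49 and in 46.2% of all protein-coding genes. Ribosomal protein genes held the run there in 17 of 60 cases (28.3%). The lower members that hold it on the strand of the gene are shown with the run in capitals, beside Eef2, which has none there.
Eef1a1: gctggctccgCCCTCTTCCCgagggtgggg
Eif3f: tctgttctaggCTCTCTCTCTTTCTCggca
Eif2b2: tttcaccgagcggaagttgaCCTCTCTCgg
Eef2: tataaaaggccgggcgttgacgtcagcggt

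These windows lie at chr9:78481710-78481739 (minus strand) for Eef1a1, chr7:108934400-108934429 (plus strand) for Eif3f, chr12:85219466-85219495 (plus strand) for Eif2b2 and chr10:81176616-81176645 (plus strand) for Eef2. Annotated starts need not be the starts used in these tumors, and a window without a run says only that these letters are not in it.

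Levels between genes are given as the authors' FPKM, which divides by gene length. Members had a median of 42.8 FPKM over the 6 tumors, against 6.13 FPKM for all genes that passed the filter on low counts. Eef1a1, which carries aminoacyl-tRNA to the ribosome, stood first at 8421 ± 617 FPKM in TP-18 tumors and 10624 ± 800.1 FPKM in vehicle tumors (SD, n = 3 each). Eef2, the translocase, followed at 2071 ± 118 FPKM in TP-18 tumors and 2705 ± 336 FPKM in vehicle tumors. Eif1, which guards start codon choice, came next at 533 ± 28.9 FPKM in TP-18 tumors and 699 ± 55.3 FPKM in vehicle tumors, and then Eef1b2, an exchange factor for eEF1A, at 514 ± 26.2 FPKM in TP-18 tumors and 680.3 ± 64.98 FPKM in vehicle tumors. Eif1, Eef1b2 and Eef1g lay within each other's spread in TP-18 tumors. At the low end, Eef1a2 averaged 0.175 ± 0.0501 FPKM in TP-18 tumors and 0.0371 ± 0.0199 FPKM in vehicle tumors. Eif4e1b, an oocyte form of eIF4E, had 0, 6 and 1 counts in TP-18 tumors, against 2, 0 and 0 counts in vehicle tumors, and Eif4a3l1, an Eif4a3-like gene, had 0, 0 and 0 counts in TP-18 tumors, against 0, 0 and 1 counts in vehicle tumors. Those last genes did not pass the filter.

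Members took 3.75%, 3.41% and 3.54% in TP-18 tumors, against 4.14%, 4.58% and 4.15% in vehicle tumors, as shares of protein-coding counts. Every TP-18 tumor lay below every vehicle tumor. The means were 3.57% ± 0.17 in TP-18 tumors and 4.29% ± 0.25 in vehicle tumors (SD, n = 3 each), a difference of -0.72 percentage points that was not tested, being a sum over chosen genes. Eef1a1 alone took 1.51% ± 0.11 in TP-18 tumors and 1.91% ± 0.14 in vehicle tumors, and without it the difference was -0.32 points. The Eef genes took 2.38% ± 0.16 in TP-18 tumors and 3.03% ± 0.26 in vehicle tumors, and the Eif genes 1.19% ± 0.032 in TP-18 tumors and 1.26% ± 0.0080 in vehicle tumors.

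**Figure D1:**
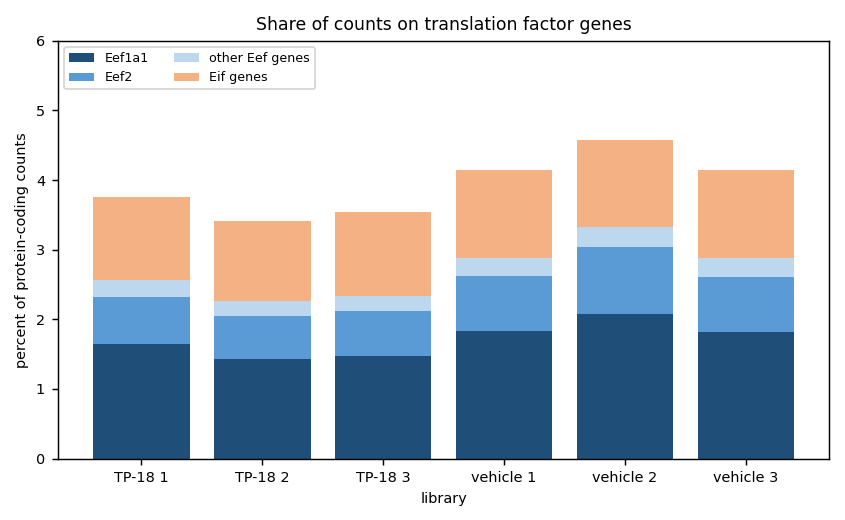
Percent of protein-coding counts (vertical axis) on Eef1a1, Eef2, other Eef genes and Eif genes, stacked in each library, with TP-18 tumors left of vehicle tumors. The stacks reach 3.41% to 3.75% in TP-18 tumors and 4.14% to 4.58% in vehicle tumors, and the Eef1a1 and Eef2 segments make most of the gap.

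The comparison of TP-18 with vehicle tumors asks which of these factors differ after treatment. Core elongation factors, several subunits of eIF3 and eIF2B, Eif1 and the inhibitor Eif4ebp1 were lower in TP-18 tumors, while Eif4e3, Eif5a2, Eef1a2 and the inhibitor Eif4ebp2 were higher. Decreases were modest, from 19.3% (Eif3k) to 31.8% (Eef1b2), and increases ran from 1.46-fold (Eif4ebp2) to 4.23-fold (Eef1a2). Of the 63 members that passed the filter, 14 fell and 4 rose by edgeR's quasi-likelihood test at a Benjamini-Hochberg adjusted p under 0.05 over all 14189 tested genes. The 18 calls made up 28.6% of tested members, beside 12.4% of all tested genes. Lower calls made up 22.2% of members, beside 5.26% of all tested genes, and higher calls 6.35%, beside 7.09%. Members are abundant, and of all tested genes above 100 FPKM 29.9% were called lower. The median log2 change was -0.18 over the members and -0.01 over all tested genes, with 52 members negative and 11 positive.

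The number of calls depended on single libraries. It was 5 without TP-18 1, 5 without TP-18 2, 2 without TP-18 3, 21 without vehicle 1, 3 without vehicle 2 and 9 without vehicle 3. Eif4ebp1 and Eif4e3 were the members called in all 6 of these fits. Vehicle 2 had the highest level among vehicle tumors for 9 of the 14 lower members and vehicle 3 for the other 5, while vehicle 1 was the lowest vehicle tumor for 11 of them. All 18 called members had groups without overlap. Over the 63 members, 32 (50.8%) lay wholly below vehicle and 5 wholly above, beside 17.8% and 18% of all tested genes. On the log2(FPKM + 1) scale, which carries no scaling between libraries beyond the total, the median of all genes moved to 0.09, 36 members were negative, and 47 lay below that median.

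**Figure D2:**
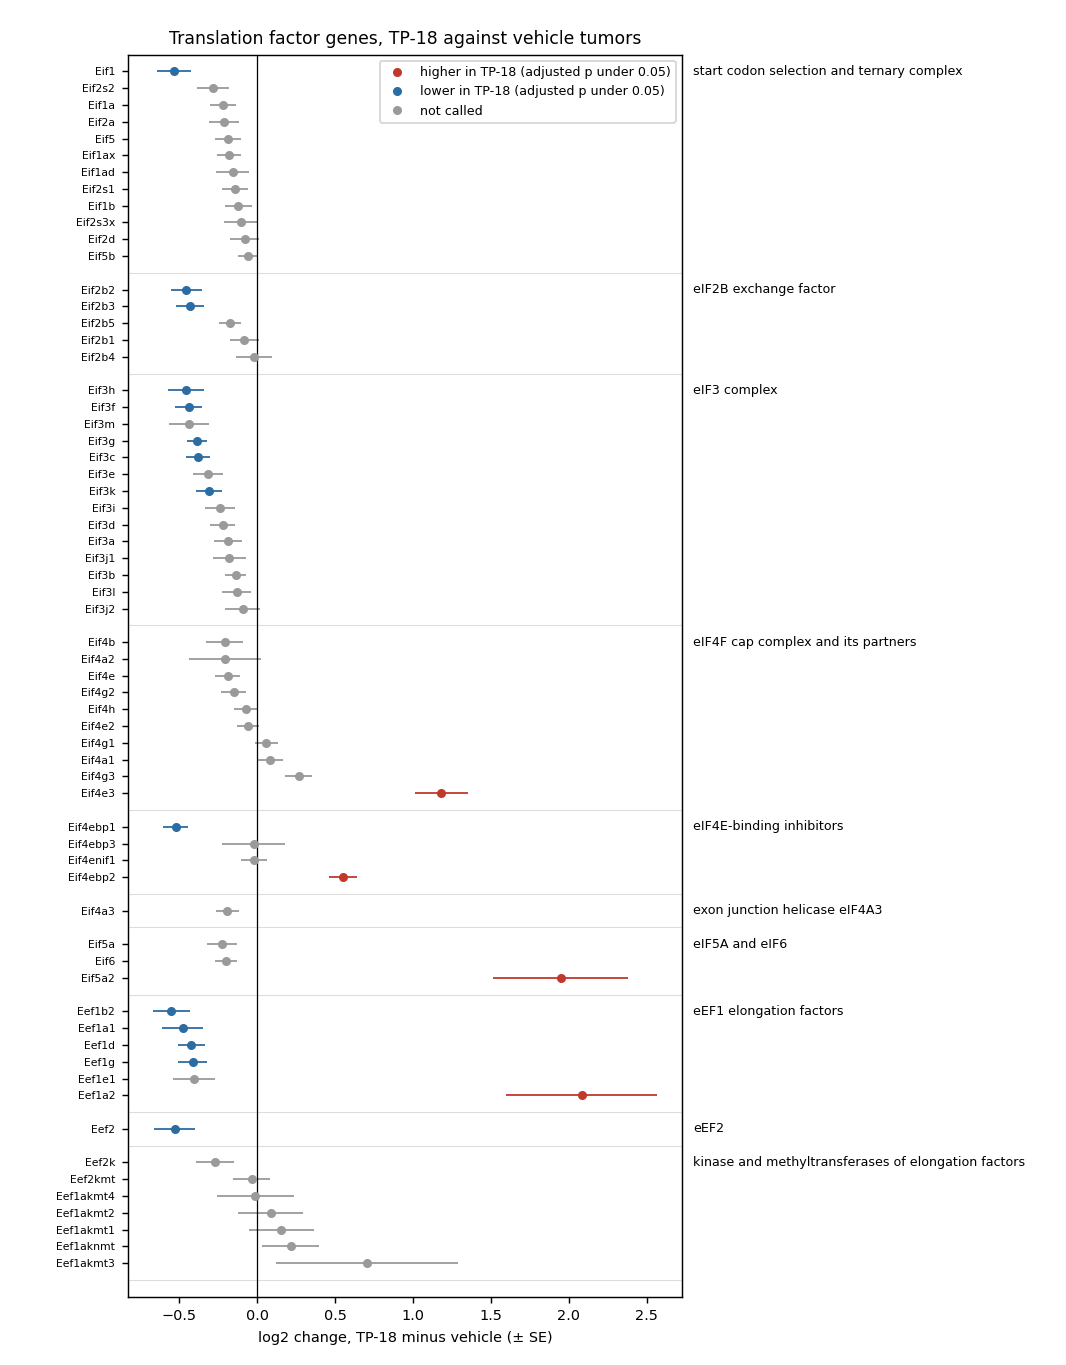
Log2 change (TP-18 minus vehicle, horizontal axis, bars are SE) of the 63 tested members, grouped by role, with calls higher in TP-18 in red, lower in blue and others in gray. All 14 eIF3 genes lie left of 0, from -0.46 to -0.09, while the 3 called points right of 1 are Eif4e3, Eif5a2 and Eef1a2.

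The start codon and ternary complex factors held 1 call among 12 genes. Eif1 (RefSeq gene model, Entrez 20918, chr11:100319949-100322099 in GRCm38.p6) had 618, 691 and 611 CPM in TP-18 tumors, against 838, 902 and 1048 CPM in vehicle tumors. The groups were apart, and vehicle 3 was the highest tumor. The log2 change was -0.54 ± 0.11 (SE, adjusted p = 0.0211), a level 31.1% lower, and the call was lost without TP-18 1 (0.0724), TP-18 3 (0.0915) and vehicle 2 (0.0699), with the adjusted p in brackets here and below. All 12 changes were negative, with a median of -0.17, although 5 of them were positive on the log2(FPKM + 1) scale, where all 12 stayed below the median of all genes. Eif2s1, the eIF2 subunit that stress kinases phosphorylate, averaged 156 ± 6.66 CPM in TP-18 tumors and 172 ± 13 CPM in vehicle tumors (-0.14 ± 0.08, adjusted p = 0.277). Averages carry the SD over 3 tumors, and brackets after them hold the log2 change with its SE. Eif2s3y was not analysed here.

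eIF2B, which reloads eIF2 with GTP, held 2 calls among 5 subunits. Eif2b2, the beta subunit (Entrez 217715, chr12:85219481-85226628 in GRCm38.p6), had 37.0, 39.7 and 41.3 CPM in TP-18 tumors, against 47.6, 57.2 and 57.1 CPM in vehicle tumors. Eif2b3, the gamma subunit (Entrez 108067, chr4:117019399-117086852 in GRCm38.p6), had 25.8, 28.8 and 30.7 CPM in TP-18 tumors, against 38.4, 38.9 and 37.9 CPM in vehicle tumors. In both genes every TP-18 tumor was below every vehicle tumor. The log2 changes were -0.46 ± 0.10 for Eif2b2 (adjusted p = 0.0251) and -0.43 ± 0.09 for Eif2b3 (adjusted p = 0.0235). The call on Eif2b2 was lost without TP-18 1 (0.0880), TP-18 2 (0.0692), TP-18 3 (0.0739), vehicle 2 (0.0941) and vehicle 3 (0.0551), and that on Eif2b3 without TP-18 1 (0.0782), TP-18 2 (0.0642), TP-18 3 (0.0552) and vehicle 2 (0.0858). Eif2b5, the catalytic epsilon subunit, averaged 58.6 ± 2.93 CPM in TP-18 tumors and 66.1 ± 0.294 CPM in vehicle tumors and was not called (-0.18 ± 0.07, adjusted p = 0.149). Eif2b1 and Eif2b4 had log2 changes of -0.08 ± 0.09 and -0.02 ± 0.12.

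The eIF3 scaffold held 5 lower calls among 14 genes (Eif3c, Eif3f, Eif3g, Eif3h and Eif3k). All 14 changes were negative, with a median of -0.28 on the log2 scale, although 3 were positive on the log2(FPKM + 1) scale, where all 14 stayed below the median of all genes. Eif3g, an RNA-binding subunit (Entrez 53356, chr9:20894349-20898590 in GRCm38.p6), had 107, 108 and 106 CPM in TP-18 tumors, against 135, 143 and 139 CPM in vehicle tumors. Both groups were tight and well apart. Its log2 change was -0.39 ± 0.07, adjusted p = 0.0126, and the call was lost without TP-18 1 (0.0509), TP-18 3 (0.0648) and vehicle 2 (0.0560). Eif3f (Entrez 66085, chr7:108934415-108941942 in GRCm38.p6), whose E-box and pyrimidine run are shown above, had 349, 326 and 321 CPM in TP-18 tumors, against 433, 492 and 428 CPM in vehicle tumors. Its groups did not overlap (-0.44 ± 0.09, adjusted p = 0.0191), and the call was lost without TP-18 2 (0.0625), TP-18 3 (0.0880) and vehicle 2 (0.0787).

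Eif3h, the most abundant eIF3 gene by FPKM, averaged 595 ± 57.9 CPM in TP-18 tumors and 817 ± 92.7 CPM in vehicle tumors (-0.46 ± 0.11, adjusted p = 0.0391), and its call was lost without TP-18 1 (0.0581), TP-18 2 (0.113), TP-18 3 (0.135), vehicle 2 (0.137) and vehicle 3 (0.0733). Eif3c, a core subunit, averaged 457 ± 10.4 CPM in TP-18 tumors and 596 ± 25.2 CPM in vehicle tumors (-0.38 ± 0.08, adjusted p = 0.0206), and its call was lost without TP-18 1 (0.0762), TP-18 2 (0.0563), TP-18 3 (0.0909) and vehicle 2 (0.0833). Eif3k, a peripheral subunit, lay just inside the threshold at 192 ± 11.8 CPM in TP-18 tumors and 238 ± 15.8 CPM in vehicle tumors (-0.31 ± 0.08, adjusted p = 0.0489). It was not called with RLE or upper-quartile scaling (0.0511 and 0.0518), a filter of 1 CPM (0.0527) or limma-voom (0.0503), nor without TP-18 1 (0.0778), TP-18 2 (0.136), TP-18 3 (0.161), vehicle 2 (0.136) and vehicle 3 (0.1246).

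The other 9 eIF3 genes were not called. Eif3m had 185, 176 and 179 CPM in TP-18 tumors, against 195, 259 and 278 CPM in vehicle tumors (-0.44 ± 0.13, adjusted p = 0.0604). Vehicle 1 was close to the TP-18 tumors in that gene, and the other vehicle tumors were well above. Eif3a, the scaffold on which the complex assembles, averaged 486 ± 17.1 CPM in TP-18 tumors and 554 ± 47.7 CPM in vehicle tumors (-0.19 ± 0.09, adjusted p = 0.205). Eif3j1 and Eif3j2 are near-identical copies, so the counting could split their reads and their values are uncertain.

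The cap-binding complex showed 1 higher and no lower call among 10 tested genes. Eif4e3, a cap-binding relative of eIF4E (Entrez 66892, chr6:99621879-99692873 in GRCm38.p6), had 12.7, 16.3 and 13.97 CPM in TP-18 tumors, against 6.92, 5.21 and 6.87 CPM in vehicle tumors. The lowest TP-18 tumor was well above the highest vehicle tumor. On the log2 scale it was higher by 1.18 ± 0.17 (adjusted p = 0.00693), a 2.27-fold level in TP-18 tumors, and the call held whichever library was left out. Gpr27, a receptor gene that overlaps it, had raw counts of 8, 7 and 10 in TP-18 tumors, against 3, 5 and 17 in vehicle tumors. Eif4e, the main cap-binding protein, averaged 125 ± 9.06 CPM in TP-18 tumors and 143 ± 2.69 CPM in vehicle tumors (-0.19 ± 0.08, adjusted p = 0.145).

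The scaffold Eif4g1 averaged 527 ± 9.17 CPM in TP-18 tumors and 507 ± 11.6 CPM in vehicle tumors (0.06 ± 0.07, adjusted p = 0.639). Eif4a1, the main helicase of the complex and its most abundant gene by FPKM, averaged 592 ± 23.8 CPM in TP-18 tumors and 559 ± 34.97 CPM in vehicle tumors (0.08 ± 0.08, adjusted p = 0.550). Eif4a2, a second form of that helicase, was scattered, with 144, 193 and 137 CPM in TP-18 tumors, against 132, 179 and 236 CPM in vehicle tumors (-0.21 ± 0.23, adjusted p = 0.591). Its groups overlapped. Eif4a3, the helicase of the exon junction complex, averaged 94.6 ± 3.22 CPM in TP-18 tumors and 108 ± 4.84 CPM in vehicle tumors (-0.19 ± 0.07, adjusted p = 0.117).

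The 4E-binding inhibitors moved in opposite directions. Eif4ebp1, which encodes 4E-BP1 (Entrez 13685, chr8:27260327-27275656 in GRCm38.p6), had 239, 242 and 263 CPM in TP-18 tumors, against 357, 337 and 376 CPM in vehicle tumors. The gap between the groups was wider than the range within either. Its log2 change was -0.52 ± 0.08, adjusted p = 0.00820, the smallest p among the lower members, and the call held whichever library was left out. Eif4ebp2, which encodes 4E-BP2 (Entrez 13688, chr10:61428491-61452790 in GRCm38.p6), had 49.4, 48.3 and 49.8 CPM in TP-18 tumors, against 30.03, 36.1 and 34.7 CPM in vehicle tumors. The groups were again apart, and the TP-18 tumors were nearly level. Its change on the log2 scale was 0.55 ± 0.09, adjusted p = 0.0109, and the call was lost without TP-18 3 (0.0523). Eif4ebp3, the remaining inhibitor, averaged 10.51 ± 0.912 CPM in TP-18 tumors and 10.7 ± 2.93 CPM in vehicle tumors (-0.02 ± 0.20, adjusted p = 0.954), and Eif4enif1, which carries eIF4E into the nucleus, had a log2 change of -0.02 ± 0.08, adjusted p = 0.888.

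Of eIF5A, which helps ribosomes through difficult peptide bonds, the restricted form was higher. Eif5a2 (Entrez 208691, chr3:28781032-28798846 in GRCm38.p6), whose E-boxes are shown above, had 77, 117 and 77 counts in TP-18 tumors, against 35, 15 and 13 counts in vehicle tumors. The groups did not overlap, and vehicle 1 was the highest vehicle tumor. Its level was 2.42 ± 0.683 CPM in TP-18 tumors and 0.621 ± 0.326 CPM in vehicle tumors, with a log2 change of 1.95 ± 0.43, adjusted p = 0.0277, and the call was lost without TP-18 1 (0.0619), TP-18 2 (0.0863), TP-18 3 (0.0743), vehicle 2 (0.105) and vehicle 3 (0.0558). Eif5a, the ubiquitous form, averaged 797 ± 52.9 CPM in TP-18 tumors and 933 ± 63.7 CPM in vehicle tumors and was not called (-0.23 ± 0.09, adjusted p = 0.149). Eif6, which keeps ribosomal subunits apart, averaged 117 ± 2.59 CPM in TP-18 tumors and 135 ± 6.42 CPM in vehicle tumors (-0.20 ± 0.07, adjusted p = 0.101).

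The elongation factors held the densest group of lower calls, with 4 of 6 eEF1 genes and Eef2. Eef2 (Entrez 13629, chr10:81176631-81182509 in GRCm38.p6) had 6498, 5893 and 5950.0 CPM in TP-18 tumors, against 7839, 10222 and 8429 CPM in vehicle tumors. The highest TP-18 tumor was below the lowest vehicle tumor, and vehicle 2 stood above the other vehicle tumors. The log2 change was -0.53 ± 0.13, adjusted p = 0.0377, a level 30.8% lower, and the call was lost without TP-18 1 (0.0828), TP-18 2 (0.110), TP-18 3 (0.139), vehicle 2 (0.126) and vehicle 3 (0.0551). Eef1a1 (Entrez 13627, chr9:78478453-78481724 in GRCm38.p6) had 15560.3, 13750.4 and 13741 CPM in TP-18 tumors, against 18257, 22036 and 19762 CPM in vehicle tumors. Its groups did not overlap, and vehicle 2 was again the highest. The log2 change of -0.48 ± 0.13 lay just inside the threshold (adjusted p = 0.0477). The call was lost with RLE scaling (0.0513), with a filter of 1 CPM (0.0517) and without TP-18 1 (0.0875), TP-18 2 (0.140), TP-18 3 (0.179), vehicle 2 (0.168) and vehicle 3 (0.0820). Eef1a1 has processed pseudogenes of near-identical sequence, and the treatment of multi-mapping reads in the counting was not stated.

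The subunits that recharge eEF1A with GTP were lower too. Eef1b2 (Entrez 55949, chr1:63176831-63180486 in GRCm38.p6) had 1002, 946 and 892 CPM in TP-18 tumors, against 1174, 1505 and 1482 CPM in vehicle tumors. TP-18 3 was the lowest of all tumors, and vehicle 1, the lowest of its group, was still above the TP-18 tumors. The log2 change was -0.55 ± 0.12, adjusted p = 0.0248, the largest decrease among the members, and the call was lost without TP-18 1 (0.0582), TP-18 2 (0.0714), TP-18 3 (0.103), vehicle 2 (0.0961) and vehicle 3 (0.0524). Eef1g, the structural subunit of the exchange complex (Entrez 67160, chr19:8967041-8978180 in GRCm38.p6), averaged 755 ± 58.0 CPM in TP-18 tumors and 1008 ± 50.4 CPM in vehicle tumors (-0.42 ± 0.09, adjusted p = 0.0286), and its call was lost without TP-18 1 (0.0653), TP-18 2 (0.0685), TP-18 3 (0.118), vehicle 2 (0.105) and vehicle 3 (0.0619). Eef1d, another exchange subunit (Entrez 66656, chr15:75894796-75909784 in GRCm38.p6), averaged 265 ± 13.3 CPM in TP-18 tumors and 355 ± 28.8 CPM in vehicle tumors (-0.42 ± 0.09, adjusted p = 0.0218), and its call was lost without TP-18 2 (0.0679), TP-18 3 (0.0949) and vehicle 2 (0.0674). Tigd5, which overlaps Eef1d, had raw counts of 102, 124 and 142 in TP-18 tumors, against 165, 89 and 112 in vehicle tumors and was not called. Eef1e1, which sits in the tRNA synthetase complex in spite of its name, averaged 48.9 ± 4.93 CPM in TP-18 tumors and 64.8 ± 11.5 CPM in vehicle tumors and was not called (-0.41 ± 0.14, adjusted p = 0.0902).

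Eef1a2, the form of eEF1A found in muscle and neurons (Entrez 13628, chr2:181141758-181157015 in GRCm38.p6), was higher. It had 57, 33 and 60 counts in TP-18 tumors, against 10, 16 and 5 counts in vehicle tumors. The groups did not overlap. Its level was 1.32 ± 0.365 CPM in TP-18 tumors and 0.310 ± 0.168 CPM in vehicle tumors, with a log2 change of 2.08 ± 0.48, adjusted p = 0.0318, and the call was lost whichever library was left out, namely without TP-18 1 (0.0938), TP-18 2 (0.0563), TP-18 3 (0.112), vehicle 1 (0.0579), vehicle 2 (0.0569) and vehicle 3 (0.0604). Skeletal muscle markers moved with it, with 6 of 8 called higher and a summed level of 53.2 to 107 CPM in TP-18 tumors, against 9.03 to 28.3 CPM in vehicle tumors. The 6 calls became 2 when TP-18 1, TP-18 3 or vehicle 2 was omitted, and 5 when TP-18 2, vehicle 1 or vehicle 3 was. TP-18 2 had the least Eef1a2 and the lowest muscle sum of the TP-18 tumors, and vehicle 3 the least of both among vehicle tumors. Neuron and Schwann cell markers, none of 4 called, summed to 24.99 to 30.4 CPM in TP-18 tumors, against 23.9 to 35.8 CPM in vehicle tumors. The part of muscle tissue in the Eef1a2 result was not tested.

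None of the 7 enzymes that modify elongation factors was called by edgeR, DESeq2 or limma-voom, and none had an unadjusted p under 0.05. Eef2k, the kinase that blocks eEF2, averaged 36.4 ± 3.26 CPM in TP-18 tumors and 44.0 ± 6.45 CPM in vehicle tumors (-0.27 ± 0.12, adjusted p = 0.183). Eef1akmt1, a lysine methyltransferase of eEF1A and the most abundant of the 7 by FPKM, averaged 16.4 ± 2.81 CPM in TP-18 tumors and 14.8 ± 3.96 CPM in vehicle tumors (0.15 ± 0.21, adjusted p = 0.658).

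**Figure D3:**
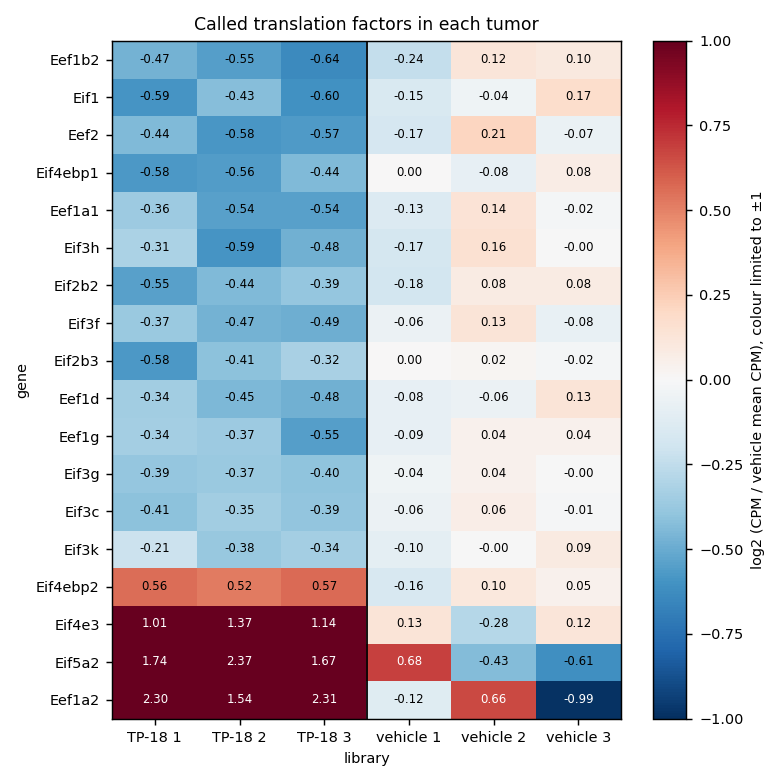
Log2 of each library's CPM over the vehicle mean (colour, limited to 1 either way, with the value in each cell) for the 18 called members, from the largest decrease at the top to the largest increase at the bottom, with TP-18 tumors left of vehicle tumors. The 14 lower members are blue in every TP-18 tumor, and Eif5a2 and Eef1a2 vary most among vehicle tumors.

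Level and call were set side by side. Of the 25 members above 100 FPKM, 12 fell and none rose, beside 29.9% lower and 2.7% higher of the 592 tested genes above that level, which include the members and ribosomal proteins. The 14 lower members had a median of 282 FPKM, against 37.1 FPKM for tested members without a call. Of the higher members, the most abundant was Eif4ebp2, at 28.9 ± 0.933 FPKM in TP-18 tumors and 17.9 ± 1.07 FPKM in vehicle tumors. The median coefficient of variation over tested members was 5.70% in TP-18 tumors and 7.95% in vehicle tumors, against 9.09% and 12.7% over all tested genes.

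**Figure D4:**
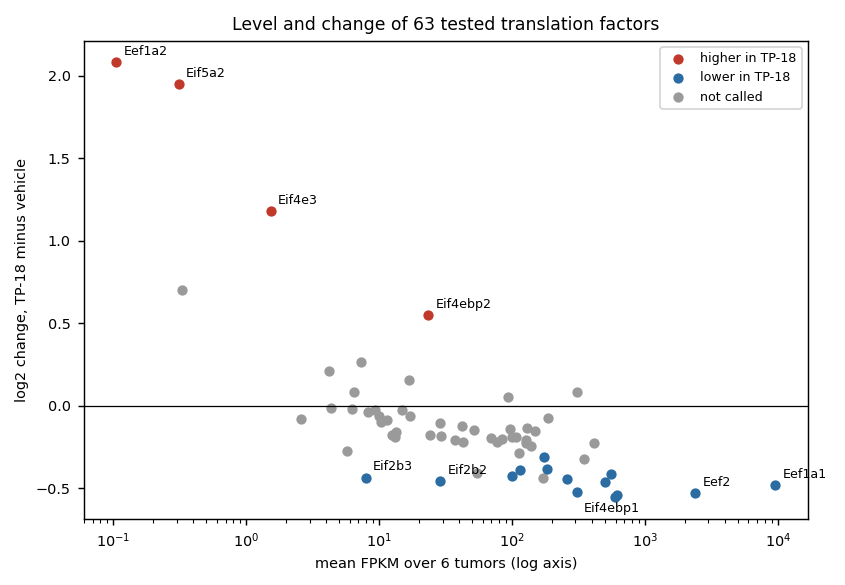
Mean FPKM over the 6 tumors (horizontal log axis) and log2 change, TP-18 minus vehicle (vertical axis), of the 63 tested members, coloured by call. Eef1a1 and Eef2 sit at the high end with changes of -0.48 and -0.53, and Eef1a2 and Eif5a2 at the low end with 2.08 and 1.95.

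Ratios between related factors within a tumor do not depend on the scaling of libraries. Of 12 pairs compared by FPKM, 9 had no overlap between groups, each with an exact two-sided permutation p of 0.10, the smallest that 3 against 3 allows (0.133 adjusted over the pairs). Of single genes, 35.8% had no overlap in either direction, and the share among other gene pairs was not computed. The pairs with Eef1a2, Eif4e3, Eif4ebp2, Eif5a2 and Eif1 each hold a called member, so their separation is not independent of those calls. The log2 ratio of Eif4ebp2 to Eif4ebp1 was -3.14, -3.19 and -3.26 in TP-18 tumors, against -4.44, -4.09 and -4.30 in vehicle tumors. Eif4ebp1 thus stood at 9.17 FPKM per FPKM of Eif4ebp2 in TP-18 tumors and at 19.3 in vehicle tumors. The log2 ratio of Eif4e3 to Eif4e averaged -2.55 ± 0.27 in TP-18 tumors and -3.93 ± 0.25 in vehicle tumors, and that of Eif1b to Eif1, which encode close relatives, -3.66 ± 0.12 in TP-18 tumors and -4.07 ± 0.09 in vehicle tumors. The difference in log2 ratio was 2.27 for Eif5a2 to Eif5a and 2.68 for Eef1a2 to Eef1a1. It was smaller for Eif4g3 to Eif4g1 (0.20) and Eif4e2 to Eif4e (0.13), and negative for Eif4a3 to Eif4a1 (-0.28) and Eif4g2 to Eif4g1 (-0.21). The groups overlapped for Eif4a2 to Eif4a1, Eif1ax to Eif1a and Eif3j2 to Eif3j1, with exact permutation p-values of 0.50, 0.70 and 0.70.

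**Figure D5:**
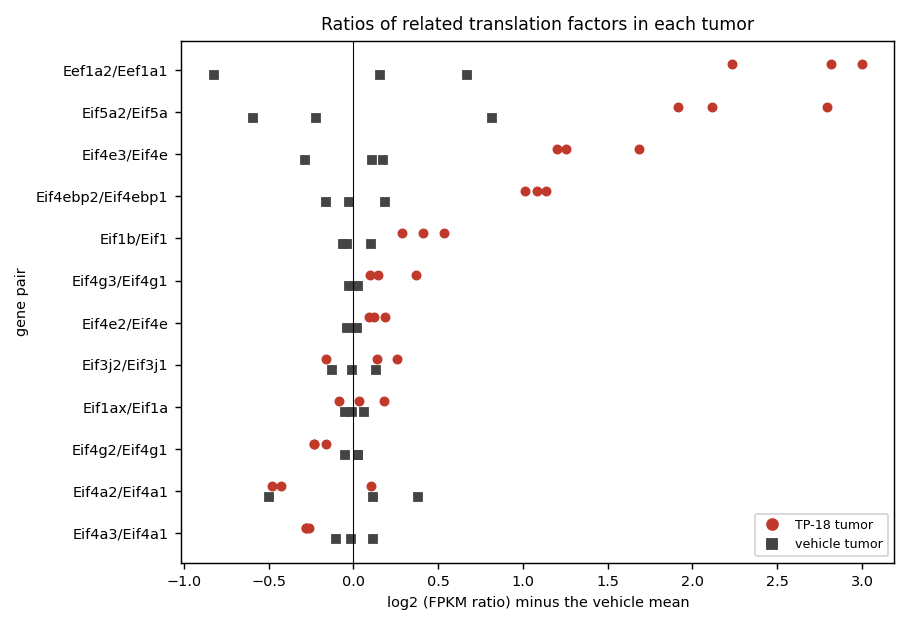
Log2 ratio of FPKM between related genes in each tumor, minus the vehicle mean of that pair (horizontal axis), for 12 pairs, with TP-18 tumors as red circles above vehicle tumors as dark squares. The group means of the 4 pairs at the top differ by 1.08 to 2.68, and the groups overlap in 3 pairs.

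Other parts of the translation apparatus were counted in the same fit. Of 80 tested cytosolic ribosomal proteins 66 fell (82.5%, beside 5.26% of all tested genes) and none rose, with a median log2 change of -0.56. The number that fell was 21 without TP-18 1, 10 without TP-18 2, 2 without TP-18 3, 77 without vehicle 1, 5 without vehicle 2 and 39 without vehicle 3. Rpl37a and Rpl24, of the large subunit, had log2 changes of -0.61 ± 0.09, adjusted p = 0.00747 and -0.62 ± 0.09, adjusted p = 0.00770. Among 22 aminoacyl-tRNA synthetase and scaffold genes 4 fell (18.2%, beside 5.26% of all tested genes) and none rose, with a median of -0.19. They were the scaffold Aimp1 (-0.50 ± 0.09, adjusted p = 0.0135), Sars for serine (-0.40 ± 0.08, adjusted p = 0.0171), Aars for alanine (-0.44 ± 0.10, adjusted p = 0.0345) and Dars for aspartate, the last named after its values were seen. Calls were lost without TP-18 1 (0.0510), TP-18 3 (0.0530) and vehicle 2 (0.0573) for Aimp1, TP-18 1 (0.0670) and TP-18 3 (0.0685) for Sars and TP-18 1 (0.109), TP-18 2 (0.0701), TP-18 3 (0.0926) and vehicle 2 (0.0981) for Aars.

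Of 6 kinase and phosphatase genes that act on eIF2, 1 was called higher (16.7%, beside 7.09% of all tested genes). Another 1 was called lower (16.7%, beside 5.26%). The other 4 were not called, and the median of the list was 0.03 on the log2 scale. Eif2ak2, the interferon-induced kinase PKR, had 97.7, 96.6 and 91.8 CPM in TP-18 tumors, against 57.5, 49.6 and 54.5 CPM in vehicle tumors. This was a log2 change of 0.82 ± 0.08, adjusted p = 0.00182. Ppp1r15a, the stress-induced phosphatase subunit GADD34 that reverses eIF2 phosphorylation, had 82.7, 113 and 108 CPM in TP-18 tumors, against 247, 254 and 232 CPM in vehicle tumors. This was a log2 change of -1.27 ± 0.12, adjusted p = 0.00182. In both genes the groups were far apart, and both calls held whichever library was left out. A list of 13 genes joined mTORC1 and its effectors with the kinases of eIF4E. In it 1 gene rose (7.69%, beside 7.09% of all tested genes) and none fell. The higher gene was Mknk2, one of the kinases of eIF4E, at 103 ± 6.68 CPM in TP-18 tumors and 71.9 ± 7.38 CPM in vehicle tumors (0.52 ± 0.10, adjusted p = 0.0159). Its call was lost without TP-18 1 (0.0519), TP-18 2 (0.0562) and vehicle 2 (0.0694). Of 5 poly(A)-binding proteins and partners 1 was called lower, Pabpc4, at 308 ± 12.8 CPM in TP-18 tumors and 448 ± 59.4 CPM in vehicle tumors (-0.54 ± 0.11, adjusted p = 0.0199). Its call was lost without TP-18 1 (0.0566), TP-18 2 (0.0569), TP-18 3 (0.0872) and vehicle 2 (0.0791). All 5 changes were negative, with an unadjusted p under 0.05 by edgeR, and DESeq2 called 3. All 5 lay wholly below vehicle, beside 17.8% of all tested genes.

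No call was made by edgeR among 9 termination, recycling and reinitiation factors, 9 genes of diphthamide and hypusine synthesis or 10 mitochondrial translation factors. At an unadjusted p under 0.05 there were 2, 1 and 2. DESeq2 made 1, 0 and 0 calls in these lists, and limma-voom none. The medians were -0.14, -0.17 and -0.05 on the log2 scale. The smallest p-values there belonged to Mcts1, a reinitiation factor (-0.45 ± 0.13, adjusted p = 0.0578), Dhps, which starts hypusine synthesis on eIF5A (-0.32 ± 0.13, adjusted p = 0.153), and Mrrf, the mitochondrial recycling factor (-0.23 ± 0.08, adjusted p = 0.105).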

How the data were processed

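RNA of 6 CT26 tumors (3 TP-18 and 3 vehicle) was sequenced. Total RNA was taken with TRIzol and libraries were made with a VAHTS Universal V6 kit, per the labels' protocols. Per the submitters' processing notes, fastp, HISAT2 and HTSeq were used with GRCm38. Versions, strand setting and the treatment of multi-mapping reads: not given in the sources used here. Deposited were tables of raw read counts per gene and of FPKM, both made by the authors. FPKM equalled the count over gene length and library total.

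Members and lists were chosen with earlier results of these data known. Counts were tested with edgeR 4.0.16 in R 4.3.3 (filterByExpr with a minimum count of 10 and minimum total of 15, TMM scaling, robust quasi-likelihood F test, TP-18 against vehicle, Benjamini-Hochberg over all 14189 tested genes, called under 0.05). CPM divides by TMM-scaled totals. SE is the log2 change over the square root of F. The step was tested on simulated counts with changes of 2-fold or more. All 14 lower calls were smaller than that, so the simulation did not check calls of their size. Alternatives were RLE and upper-quartile scaling, other filters, a replicate block, each library left out, DESeq2 1.42.0, limma 3.58.1 voom and limma on log2(FPKM + 1) or log2(FPKM + 0.1). The text names called members, the member of each role with the smallest p and with the highest FPKM, fixed members, and per pathway list up to 3 called genes or else the one with the smallest p. One gene this rule names is not reported here. Eif2b1, Eif2b4, Eif3m, Eif4ebp3, Eif4enif1 and Eef1e1 were added after their values were seen. Of the listed symbols, 233 matched and 1 did not.

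RefSeq gene models overlap another coding or long noncoding gene in 18 of 65 members, 3 of them called (Eif4e3, Eif5a2 and Eef1d). The labels give no pairing or batch, so the library numbers were not used as pairs in the main fit.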

Additional observations from a re-analysis of the deposited data

How the results depend on the processing

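Against 18 called members (14 lower, 4 higher), the replicate block gave 5 (3 lower, 2 higher). The labels give no pairing of the libraries. Deviations from the group means correlated at 0.255, -0.102 and -0.0876 between libraries numbered 1, 2 and 3. Of 3 TP-18 libraries, 1 correlated best with its own number. With 3 libraries per group, these values cannot settle whether the numbers mark pairs. Limma gave 8 (5 lower) on log2(FPKM + 1), 9 (4 lower) on log2(FPKM + 0.1) and 3 (1 lower, 2 higher) on log2(FPKM + 1) with no filter. Leaving out a library gave 2 to 21 calls (1 to 18 lower, 1 to 3 higher). RLE or upper-quartile scaling, both count filters, DESeq2 and limma-voom gave 15 to 21 calls, within 1.5 times. The cause of these shifts was not tested. Over all genes, lower calls numbered 747, with 231 under the block, 215 on log2(FPKM + 1) and 111 to 1023 with a library left out. The difference in share of counts was -0.32 percentage points without Eef1a1, against -0.72, and -0.81 to -0.58 with a library left out. Among 30 named members only the 18 called ones had a call to lose, and the uncalled ones are pooled with them in the next counts. Of 479 repeats over these 30 members, 354 kept direction and side of the threshold, 121 lost a call and 4 changed sign. Those were Eif2s1 at 0.0012 on log2(FPKM + 1), with or without the filter, and 0.0013 on log2(FPKM + 0.1), and Eif4a2 at 0.032 without vehicle 3 (-0.38 to 0.032 over the libraries left out). The log2 ratio difference changed sign for Eif1ax to Eif1a (-0.029 without TP-18 1, up to 0.10 without TP-18 3) and for Eif3j2 to Eif3j1 (-0.0092 without TP-18 3, up to 0.20 without TP-18 1). Between 9 and 10 of 12 pairs had no overlap with a library left out. Groups that are apart stay apart when a library is dropped, so this count could not fall and does not check the result. Low counts limit Eef1a2 and Eif5a2.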
